A study of Homo sapiens with 12 samples.

Results

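The cytosolic ribosomal protein genes are the genes that encode the protein components of the ribosome outside mitochondria. They were taken as the protein-coding rows named RPL or RPS with a number and an optional letter, together with RPLP0, RPLP1, RPLP2 and RPSA, which gave 77 of the 63677 rows of the count tables. Of these, 46 encode large-subunit and 31 small-subunit proteins. Pseudogenes, RPS6K kinases and paralog-like names such as RPS27L were left out.

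The RNA was from SET-2, a human cell line grown from an acute myeloid leukemia, in 4 groups of 3 libraries. The insR cells, which the labels call drug-resistant, carry LSD1 with an arginine inserted between Leu659 and Asn660 and were given 250 nM GSK-LSD1 or 0.1% (v/v) DMSO for 48 h. WT cells carry wild-type LSD1 and were given the same drug or DMSO for the same time. KDM1A encodes LSD1, an enzyme that takes methyl groups off histones, and GSK-LSD1 inhibits it. Whether the insR cells are 1 clone or a pool is not given in the sources used here.

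Each ribosome holds a single copy of almost every ribosomal protein, so cells make these proteins in matched amounts, and their mRNAs are among the most abundant in growing cells. Most of these mRNAs begin with a 5′ terminal oligopyrimidine (TOP) tract, a C followed by a run of C and T, through which mTOR signalling sets how well they are translated. In blood cells the family is known for Diamond-Blackfan anaemia, in which loss of 1 copy of a ribosomal protein gene impairs red cell production.

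KDM1A stood at 107, 101 and 110 CPM (reads of a gene scaled to library size) under GSK-LSD1 and at 109, 107 and 111 CPM in DMSO in insR cells. In WT cells it stood at 219, 218 and 213 CPM under the drug and 290, 238 and 266 CPM in DMSO. The insR libraries lay below all WT libraries, with a log2 fold change of insR over WT in DMSO of -1.28 (SE 0.08, edgeR adjusted p = 7.64e-12). Under the drug, WT cells also had less KDM1A RNA than in DMSO (log2 fold change -0.29, adjusted p = 0.00451). An inserted codon is not seen in counts per gene, and these levels leave the labels unchecked. Summed haematopoietic markers reached 5471 to 5708 CPM in WT GSK-LSD1 and 3864 to 4046 CPM in WT DMSO, against 4297 to 4489 CPM over both insR groups. Epithelial, fibroblast, T cell and B cell marker lists each summed to at most 24.8 CPM in any library.

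Reads in genes numbered 4837096 to 10141155 per library. Libraries held 458562 to 991792 reads in the 77 genes, but these were spread unevenly. RPL37A had 600823 reads over all 12 libraries, RPS27A 548403 and RPL27A 476814, whereas RPL17 had 183 and RPL21 had 232. In total 22 members averaged over 10000 reads per library and 11 averaged under 100. All 77 members have rows named as their pseudogenes in the tables, with a median of 14 such rows per member and 133 for RPL21. Of 50-base words in the last 300 bases of each member's longest principal transcript, at least 50% also occurred in transcripts of other genes for 23 members. Those 23 had a median of 9873 reads over all libraries, against 80431 for the other 54 (Spearman's rho between reads and the shared percentage -0.51 over 77 genes, as a description). Counts of members with near-identical copies are uncertain, since the counting could split or drop such reads. The percentage was low for some members with few reads, at 2.79 for RPS26 and 0 for RPL9, RPL10 and RPS28. It depends on the transcript taken, 1272 bases long for RPS26 and 2354 for RPL9, whose end need not be where the reads lie. A low percentage therefore does not show that the counted 3′ end has no copies. RPS28P7, a pseudogene row, held 202196 reads where RPS28 held 2699, and RPL10P3 held 19380 where RPL10 held 949. The test covered 76 members.

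Taken as a whole, the family filled a larger share of gene reads in both the drug-treated WT cells and the insR cells than in untreated WT cells. The summed share was 9.361%, 9.534% and 9.597% in insR GSK-LSD1 and 9.352%, 9.514% and 9.239% in insR DMSO. It was 10.15%, 9.825% and 10.33% in WT GSK-LSD1 and 8.125%, 8.503% and 8.283% in WT DMSO. The WT GSK-LSD1 libraries were the highest and the WT DMSO libraries the lowest, with no overlap between these groups, while the insR groups overlapped. Both subunits showed the same order. Large-subunit genes filled 5.26% ± 0.115 in WT GSK-LSD1 and 4.30% ± 0.0876 in WT DMSO, and small-subunit genes 4.84% ± 0.144 in WT GSK-LSD1 and 4.002% ± 0.105 in WT DMSO (SD, n = 3). These are shares of the RNA sampled, so more of these transcripts per cell and less of other RNA cannot be told apart, nor can fewer cells of a type and less RNA per cell. Mitochondrial genes also took a larger share, 3.97% to 4.54% in WT GSK-LSD1 and 2.93% to 3.55% in WT DMSO. With them taken out of the total the family's share was 10.5% in WT GSK-LSD1 and 8.58% in WT DMSO. Reads outside genes made up 18.4% to 19.5% of uniquely aligned reads in WT GSK-LSD1 and 16.3% to 16.7% in WT DMSO. The haematopoietic marker sum given above moved the same way, but its genes went both ways. Of its 11 tested genes, 6 were called higher and 4 lower with the drug in WT cells, where 22.7% of all genes were higher and 22.5% lower. The part of the mitochondrial reads, the reads outside genes and these markers in the family's rise was not tested.

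**Figure D1:**
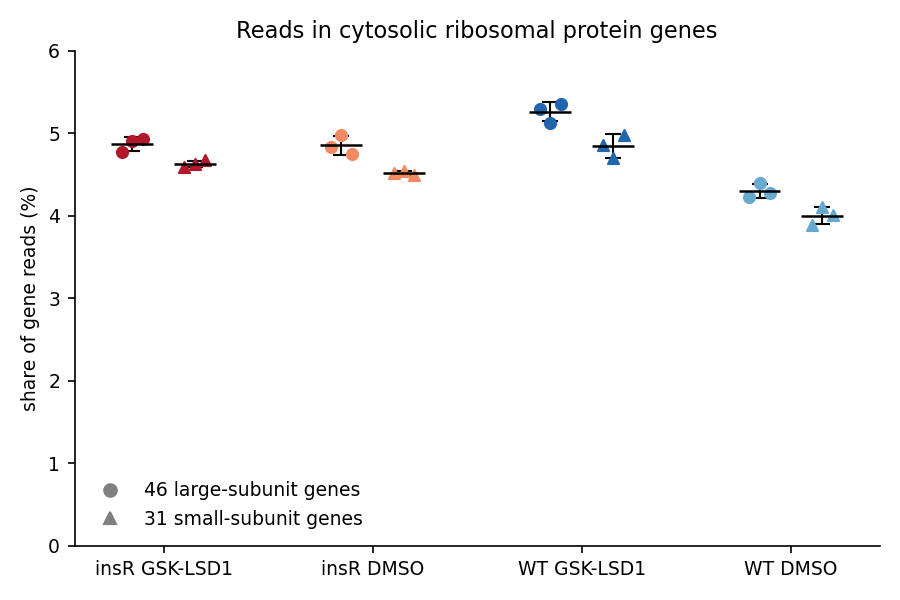
Share of gene reads (%, vertical axis) in 46 large-subunit (circles) and 31 small-subunit (triangles) ribosomal protein genes in each of the 12 libraries, with the group mean (line) and SD (bar, n = 3). For both subunits the 3 WT DMSO libraries lie lowest and the WT GSK-LSD1 mean is the highest.

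Annotated start sites show the feature the family is known for. RefSeq promoter windows (GRCh38.p14) matched 62 of the 77 members, and the letters searched at the annotated start, on the transcript strand alone, were a C followed by C or T in a run of at least 5 bases. The run was present in 46 of 62 members (74.2%), against 1358 of 27243 other genes (4.98%). It was also present in 13 of 14 matched genes of elongation factors and other known TOP mRNAs (92.9%), a list chosen to hold such mRNAs. By contrast, 4 of 63 mitochondrial ribosomal protein genes (6.35%) and 3 of 25 ribosome biogenesis genes (12%) had it. Among members called higher under the drug in WT cells 24 of 29 had the run, and among members not called 22 of 32 had it. The windows below hold 10 bases before the annotated start and the first 20 transcribed bases, with the run in capitals. They are shown for members that rose most or differed in response, for RPL26, which was lower in insR cells, and, last, for RPL35 and RPS27A, which were not called in WT cells.

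RPL13A: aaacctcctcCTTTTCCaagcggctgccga
RPL28: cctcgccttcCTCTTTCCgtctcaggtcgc
RPL31: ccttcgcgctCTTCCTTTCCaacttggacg
RPLP1: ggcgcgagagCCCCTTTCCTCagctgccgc
RPS25: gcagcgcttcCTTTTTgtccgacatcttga
RPL26: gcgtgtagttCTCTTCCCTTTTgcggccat
RPL15: tggggcctgctggaggagcttcacgcagtc
RPL35: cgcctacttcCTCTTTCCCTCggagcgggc
RPS27A: ggcgttcttcCTTTTCgatccgccatctgc

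RPL13A lies at chr19:49487598-49487627, RPL28 at chr19:55385922-55385951, RPL31 at chr2:101002279-101002308, RPLP1 at chr15:69452808-69452837, RPL15 at chr3:23916535-23916564 and RPS27A at chr2:55232678-55232707, all on the plus strand. RPS25 lies at chr11:119018324-119018353, RPL26 at chr17:8383174-8383203 and RPL35 at chr9:124861938-124861967 on the minus strand. The run spans 7 bases in RPL13A and 12 in RPL26, and RPL15 has none at any of its 3 annotated starts, of which 1 is shown. RPS27A, with a run of 6 bases, and RPL35, with 11, were not called in WT cells.

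The first comparison asked which ribosomal protein transcripts changed with GSK-LSD1 in WT cells. Of 76 members, 37 rose (48.7%) and 2 fell (2.63%), where 22.7% of the 12864 genes tested were called higher, 22.5% lower and 45.2% in either direction. The members' median log2 fold change was 0.23, against 0.01 over all genes tested, and 61 of 76 were positive. The rise was shared by both subunits, with 19 higher and 1 lower of 46 large-subunit genes and 18 higher and 1 lower of 30 small-subunit genes. In 35 members all treated libraries lay above all DMSO libraries, 46.1% of those tested, against 26.5% of all genes. In 2 members all treated libraries lay below, against 25.4% of all genes.

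The largest rise was in RPL13A, a large-subunit protein that also has a role outside the ribosome in silencing inflammatory mRNAs. RPL13A stood at 960, 979 and 1102 CPM in WT GSK-LSD1 and at 466, 514 and 497 CPM in WT DMSO, a log2 fold change of 1.04 (SE 0.08, edgeR adjusted p = 9.12e-11). The next largest rise was that of RPL28. RPL28, a large-subunit surface protein, stood at 832, 733 and 790 CPM in WT GSK-LSD1 and at 462, 494 and 523 CPM in WT DMSO (log2 fold change 0.67, SE 0.08, adjusted p = 5.48e-07). RPL15, of the large subunit and mutated in some Diamond-Blackfan anaemia, stood at 713, 713 and 746 CPM in WT GSK-LSD1 and at 467, 521 and 480 CPM in WT DMSO (0.56, SE 0.07, adjusted p = 6.29e-07). Treated and untreated libraries did not overlap in any of these genes.

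RPL29 stood at 83.8, 79.3 and 86.4 CPM in WT GSK-LSD1, against 42.0, 57.6 and 71.4 CPM in WT DMSO (log2 fold change 0.55, SE 0.14, adjusted p = 0.00333). Its DMSO libraries were spread widely, yet all lay below the treated ones. The small-subunit gene RPS20 stood at 915, 877 and 1112 CPM in WT GSK-LSD1 and 667, 710 and 659 CPM in WT DMSO (0.51, adjusted p = 0.000141). RPL31 (0.48, adjusted p = 6.32e-05) and RPL37 (0.47, adjusted p = 8.67e-05) were also among the 8 largest rises. The 29 smaller rises had log2 fold changes of 0.20 to 0.46. Among them RPS3 (0.33) lost its call without WT GSK-LSD1 replicate 1, and RPL10A (0.32) on leaving out replicate 1 or 3 of WT DMSO or replicate 2 or 3 of WT GSK-LSD1.

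The stalk of the large subunit, formed by RPLP0, RPLP1 and RPLP2 on a base that includes RPL12, recruits the elongation factors. RPLP1 stood at 3543, 3357 and 3361 CPM in WT GSK-LSD1 and 2457, 2543 and 2470 CPM in WT DMSO (log2 fold change 0.46, SE 0.07, edgeR adjusted p = 1.18e-05). RPL12 also rose (0.33, adjusted p = 0.00157). RPLP0 stood at 178, 222 and 175 CPM in WT GSK-LSD1 and 193, 177 and 120 CPM in WT DMSO, and its groups overlapped, as did those of RPLP2 at 4773 to 5659 CPM and 4221 to 5016 CPM. Neither RPLP0 nor RPLP2 was called.

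RPL5 and RPL11 form a particle with the smallest ribosomal RNA and, when free of ribosomes, bind and inhibit MDM2, a ubiquitin ligase. Both rose in WT cells. RPL11 stood at 1932, 1785 and 2016 CPM in WT GSK-LSD1 and 1391, 1592 and 1487 CPM in WT DMSO (log2 fold change 0.36, SE 0.08, adjusted p = 0.000637). RPL5 stood at 1374, 1269 and 1389 CPM in WT GSK-LSD1 and 1105, 1068 and 1125 CPM in WT DMSO (0.29, SE 0.08, adjusted p = 0.00653). Of 10 genes listed for the MDM2 pathway, 5 rose and 1 fell (median 0.34), where 45.2% of all genes were called in either direction. ZMAT3, an RNA-binding zinc finger protein, rose (0.87, adjusted p = 2.5e-07), and MDM2 fell (-0.44, adjusted p = 0.000202).

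Of 19 tested members mutated in Diamond-Blackfan anaemia, 9 rose and 1 fell, with a median log2 fold change of 0.24. These values lay near those of the whole family, in which 48.7% rose, 2.63% fell and the median was 0.23. Over all genes tested, 22.7% were called higher and 22.5% lower. Those of lowest p were RPL15, RPL31, RPS20 and RPL11, given above. RPS19, the member most often mutated in that anaemia, stood at 4917, 4356 and 4639 CPM in WT GSK-LSD1 and 3693, 4097 and 3856 CPM in WT DMSO (0.26, adjusted p = 0.00745), with no overlap. RPL35, another of them, gave -0.25 and was not called (adjusted p = 0.093).

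The 2 members that fell, RPS26 and RPL7, had few reads. RPS26 stood at 3.21, 2.496 and 2.95 CPM in WT GSK-LSD1 and 5.27, 4.82 and 5.72 CPM in WT DMSO (log2 fold change -0.85, SE 0.34, edgeR adjusted p = 0.046). RPL7 stood at 5.10, 4.42 and 5.19 CPM in WT GSK-LSD1 and 6.85, 9.38 and 8.75 CPM in WT DMSO (-0.76, SE 0.22, adjusted p = 0.00746). A count of 3 reads was worth 0.305 to 0.622 CPM, and RPS26 averaged 20.5 reads per library. Its call was lost when any library of either WT group was left out. When each member was summed with its pseudogene rows, 43 of 77 members rose and 0 fell, RPL7 turned to 0.19 and RPS26 gave -0.56, neither called.

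Sorted by depth, the calls lay mostly in the well-counted members. Of 22 members over 10000 reads per library 16 rose, of 35 with 1000 to 10000 reads 18 rose, of 9 with 100 to 1000 reads 3 rose, and of 10 tested with fewer, 0 rose and 2 fell. Over all tested genes, 38.3% of the 60 with over 10000 reads were higher and 21.7% lower, and 20.8% of the 1315 with 1000 to 10000 reads were higher and 43.7% lower. The shares were 23.0% higher and 28.5% lower of the 6191 genes with 100 to 1000 reads, and 22.6% higher and 10.4% lower of the 5298 with fewer. The members make up 22 of those 60 genes. From the deepest bin to the shallowest, the members' median log2 fold change was 0.29, 0.23, 0.24 and -0.21. Their median SE was 0.083, 0.084, 0.139 and 0.289 in the same order. Members with 100 to 1000 reads thus had a median like that of deeper ones, with a larger SE. The medians of all genes at these depths were 0.11, -0.16, -0.05 and 0.18.

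**Figure D2:**
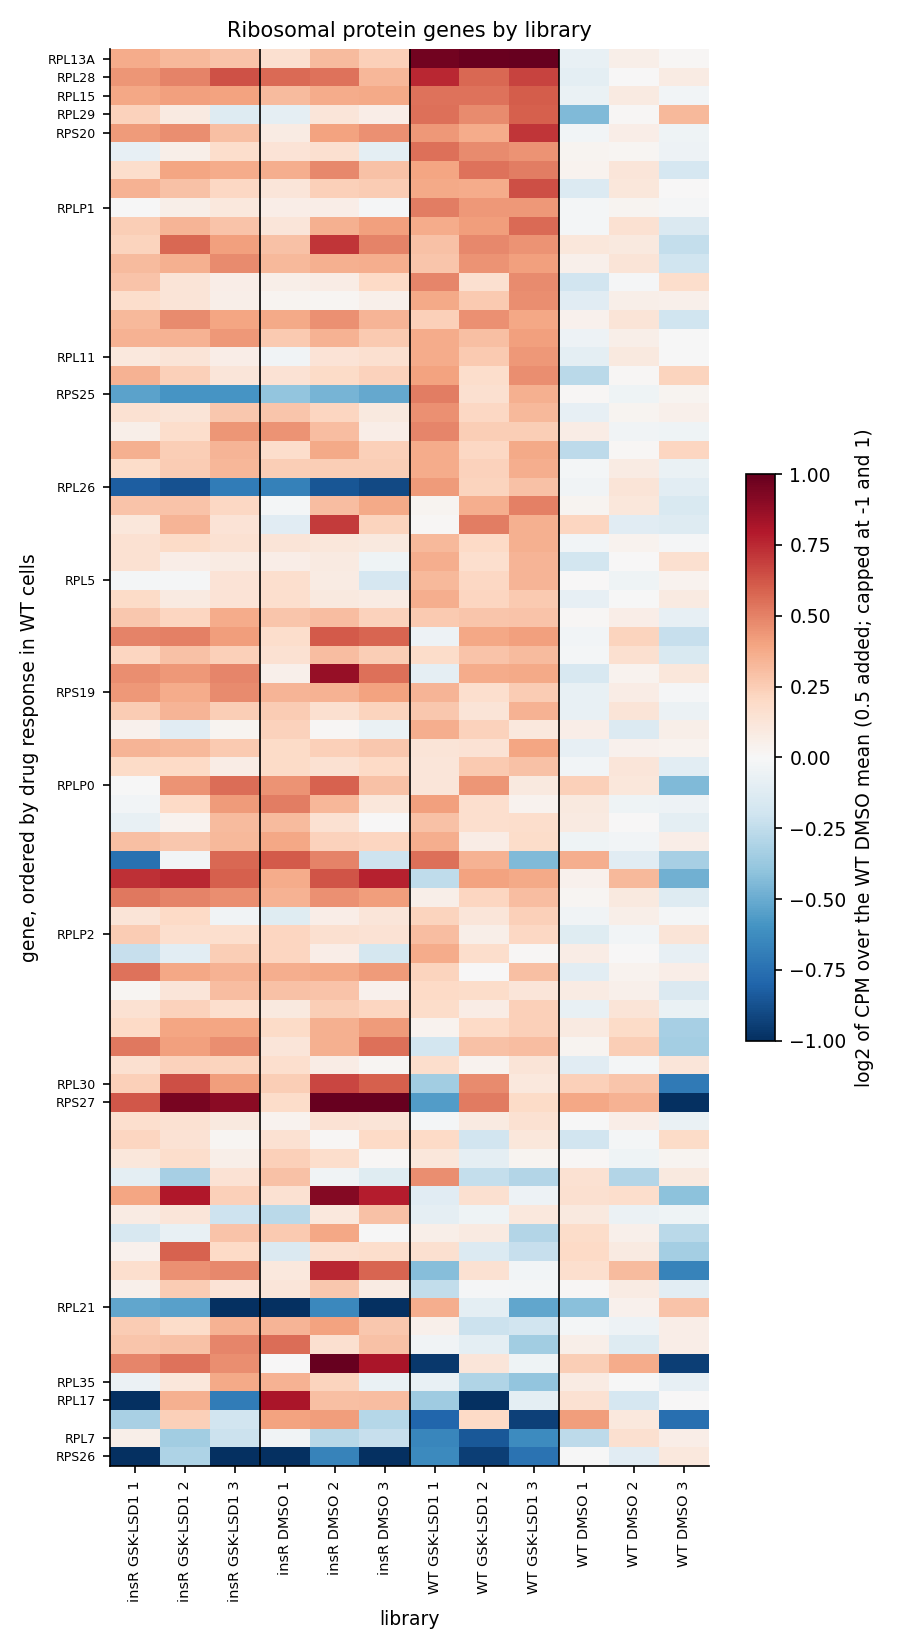
Each row is 1 of the 76 tested ribosomal protein genes, ordered by drug response in WT cells, and each column a library; colour is the log2 ratio of CPM to the WT DMSO mean, with 0.5 CPM added and capped at -1 and 1, and some of the genes named in the text are labelled. Most rows are red in the 3 WT GSK-LSD1 columns, RPL13A most of all, RPS25 and RPL26 are blue in all 6 insR columns, and rows near the bottom vary between libraries of a group.

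The second comparison, the drug response in insR cells, called no member. Of 76 members 0 were higher and 0 lower, where 0.241% of all genes were called higher, 0.264% lower and 0.505% in either direction. All treated libraries lay above all DMSO libraries in 5 members and below in 1, against 7.21% and 6.44% of all genes. The members' median log2 fold change was 0.01. An unadjusted p under 0.05 in edgeR's test was reached by 1 of 76 members, RPL17, and by 996 of the 12864 genes tested. DESeq2 and limma-voom also called 0 members. The low-count RPL17 stood at 0.806, 3.11 and 1.24 CPM in insR GSK-LSD1 and 4.47, 2.97 and 2.99 CPM in insR DMSO (log2 fold change -1.12, SE 0.43, adjusted p = 0.429). The 37 members that rose in WT cells ranged from -0.12 to 0.09 in insR cells, as a description, since they were chosen by their WT values. RPL13A stood at 637, 617 and 599 CPM in insR GSK-LSD1 and 550, 615 and 580 CPM in insR DMSO, and RPL28 at 669, 695 and 767 CPM in insR GSK-LSD1 and 731, 718 and 620 CPM in insR DMSO, with overlap in both genes.

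The difference between the responses was tested as an interaction, insR minus WT. Of 76 members, 16 responded more negatively in insR cells (21.1%) and 0 more positively, where 11.8% and 13.3% of all genes were called in these directions and 25.1% in either. The members' median difference was -0.25, against 0.00 over all genes. RPL13A had a difference of -0.95 (edgeR adjusted p = 5.85e-07), RPL28 of -0.63, RPL31 of -0.55 and RPL15 of -0.52. The stalk proteins RPLP1 and RPL12 and the MDM2-binding RPL11 were also called, but RPL5 was not (-0.29, adjusted p = 0.0776). The count of 16 fell to 8 without WT GSK-LSD1 replicate 3 and to 8 without insR DMSO replicate 2. RPS20, RPS23, RPL11 and RPL12 lost their call without either of these libraries, and each also without others.

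**Figure D3:**
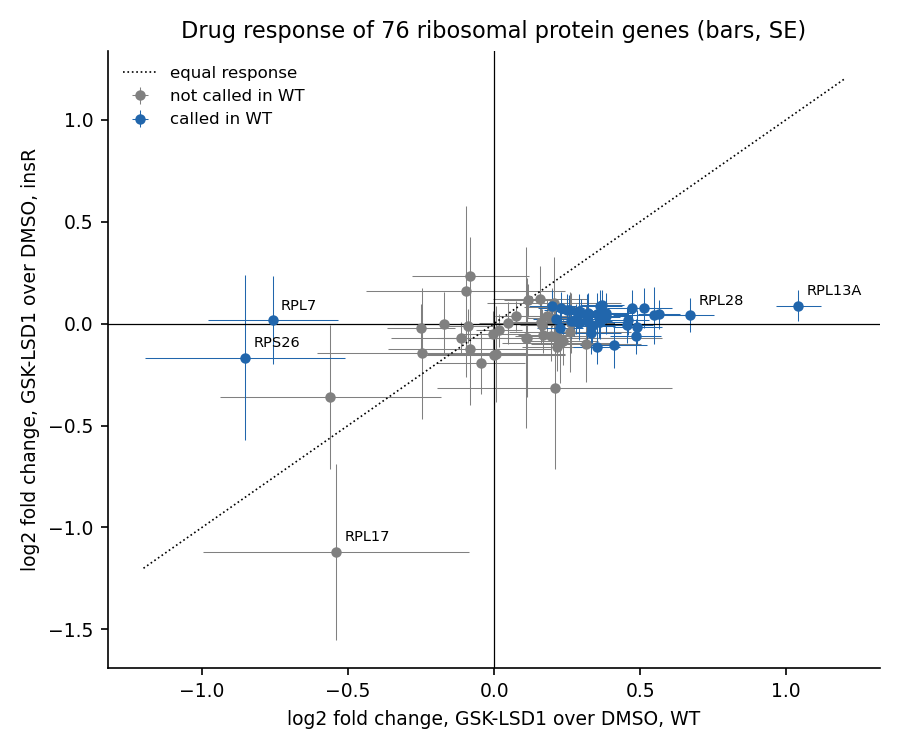
Log2 fold change of GSK-LSD1 over DMSO in WT cells (horizontal) and in insR cells (vertical) for 76 ribosomal protein genes, with SE bars and a dotted line of equal response. Genes called in WT cells (blue) spread along the horizontal axis up to 1.04 in RPL13A, while their insR values stay between -0.17 and 0.09.

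Genes that work with the ribosomal proteins fell into contrasting patterns in WT cells, where 22.7% of all genes were called higher and 22.5% lower. Elongation factors and other known TOP mRNAs had 8 higher and 1 lower of 20 (median 0.14). TPT1, translationally controlled tumour protein, stood at 2168, 2167 and 2413 CPM in WT GSK-LSD1 and 976, 1103 and 1105 CPM in WT DMSO (log2 fold change 1.08, SE 0.08, edgeR adjusted p = 4.19e-11). EEF2, which moves the ribosome along the mRNA, rose by 0.51 (adjusted p = 5.37e-06), and NAP1L1, a histone chaperone, by 0.54 (adjusted p = 1.95e-06). Host RNAs of small nucleolar RNAs, which also start with TOP tracts, had 5 higher and 1 lower of 10 (median 0.34), led by EPB41L4A-AS1 (0.76, adjusted p = 7.79e-06) and SNHG6 (0.50, adjusted p = 0.00013). FAU and RACK1, ribosomal proteins under other names, were not called.

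Mitochondrial ribosomal protein genes, which serve a separate ribosome, had 0 higher and 54 lower of 72, with a median log2 fold change of -0.48 in WT cells. The shares of all genes beside this and the next lists were 22.7% higher and 22.5% lower. MRPL3 stood at 107, 124 and 113 CPM in WT GSK-LSD1 and 194, 190 and 197 CPM in WT DMSO (-0.76, SE 0.08, edgeR adjusted p = 4.19e-08). MRPL37 gave -0.76 and MRPS12 -0.78, also called. Ribosome biogenesis genes had 0 higher and 28 lower of 29 (median -0.68). Among them NOP16, a nucleolar protein, stood at 22.3, 24.6 and 20.5 CPM in WT GSK-LSD1 and 65.8, 60.8 and 48.2 CPM in WT DMSO (-1.39, adjusted p = 2.77e-09). DDX21, a nucleolar helicase, fell by 0.94 (adjusted p = 7.2e-11). Chaperones and importers of ribosomal proteins had 0 higher and 7 lower of 14 (median -0.32), with BCCIP at -1.12 and GRWD1, an RPL3 chaperone, at -0.76. Paralog-like genes had 0 higher and 3 lower of 6, and RPS27L, a paralog of RPS27, stood at 322, 302 and 284 CPM in WT GSK-LSD1 and 510, 478 and 473 CPM in WT DMSO (-0.69, adjusted p = 2.48e-06). The other genes in that list that fell, RPL26L1 (-0.52) and RPL7L1 (-0.24), lost their calls without WT GSK-LSD1 replicate 3, RPL26L1 also without WT GSK-LSD1 replicate 2 or WT DMSO replicate 3, and RPL7L1 also without WT DMSO replicate 2. In insR cells 0 genes of these lists were called, where 0.505% of all genes were. The interaction had 35 more positive and 0 more negative of 72 mitochondrial ribosomal protein genes. It had 24 more positive and 0 more negative of 29 biogenesis genes. Of all genes, 13.3% were called more positive and 11.8% more negative.

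**Figure D4:**
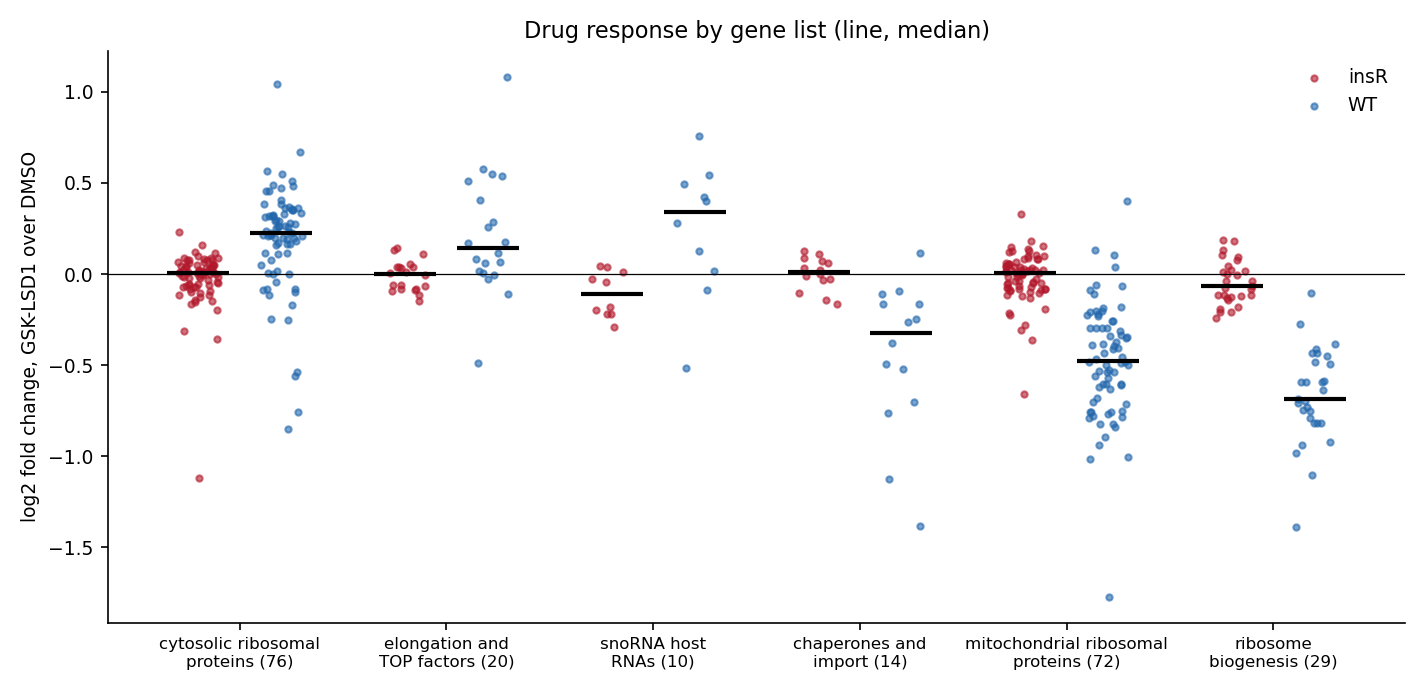
Log2 fold change of GSK-LSD1 over DMSO (vertical axis) for the genes of 6 lists, in insR cells (red, left) and WT cells (blue, right), with the list median as a line. In WT cells the medians are 0.23 for cytosolic ribosomal proteins, -0.48 for mitochondrial ribosomal proteins and -0.68 for ribosome biogenesis genes, while the insR medians lie between -0.11 and 0.01.

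Genes that act on this family moved both ways in WT cells. Of 14 genes of mTOR signalling and TOP mRNA control, 5 rose and 3 fell (median -0.08), where 22.7% of all genes were called higher and 22.5% lower, so the share that fell was near that of all genes. DDIT4, an inhibitor of mTOR complexes, rose by 1.12 (edgeR adjusted p = 0.000409), whereas EIF4E, which binds the mRNA cap, gave -0.65 (adjusted p = 5.08e-05) and LARP1, which binds capped TOP tracts, -0.43 (adjusted p = 8.66e-05). Of 12 transcription factors listed as regulators of ribosomal genes or blood development, 5 rose and 4 fell (median -0.02). RUNX1 (1.31), MYCN (4.54) and SPI1 (1.13) had the lowest p-values, and MYCN stood at 28.2, 28.99 and 29.3 CPM in WT GSK-LSD1 and 1.40, 1.34 and 0.893 CPM in WT DMSO. MYC, named after its values were seen as a known driver of ribosome production, stood at 21.6, 46.3 and 31.7 CPM in WT GSK-LSD1 and 81.5, 80.8 and 44.3 CPM in WT DMSO (-1.07, adjusted p = 0.0267), and its groups overlapped.

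The next comparison set insR against WT cells without drug. Most members were somewhat higher in insR cells, with 25 of 76 higher (32.9%) and 4 lower (5.26%), where 14.5% of all genes were called higher, 15.6% lower and 30.1% in either direction. All insR libraries lay above all WT libraries in 30 members (39.5%) and below in 4, against 20.9% and 21.5% of all genes. The median log2 fold change was 0.23, against 0.01 over all genes, and 71 of 76 were positive. This comparison uses the same WT DMSO libraries as the WT drug response. The largest rises were in RPS23, which stood at 152, 204 and 175 CPM in insR DMSO and 134, 133 and 105 CPM in WT DMSO (log2 fold change 0.51, SE 0.11, edgeR adjusted p = 0.00163), and in RPL28, at 731, 718 and 620 CPM in insR DMSO and 462, 494 and 523 CPM in WT DMSO (0.48, adjusted p = 6.31e-05). RPS16 (0.41), RPL23 (0.39), RPL36 (0.39), RPL31 (0.38) and RPS19 (0.36) were also higher, without overlap in these 5 genes. RPS18 (0.47, adjusted p = 0.028) had overlapping libraries, and its call did not hold once replicate 1 or 3 of WT DMSO or replicate 2 or 3 of insR DMSO was left out. The count of 25 fell to 14 without insR DMSO replicate 2. RPL5, RPL11 and the 4 stalk members were not called.

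RPL21, RPS26, RPL26 and RPS25 were lower in insR cells. RPL26, a large-subunit protein, stood at 350, 308 and 299 CPM in insR DMSO and 546, 610 and 520 CPM in WT DMSO (log2 fold change -0.81, SE 0.09, edgeR adjusted p = 4.85e-08). RPS25, which viral internal ribosome entry sites depend on, stood at 351, 335 and 324 CPM in insR DMSO and 467, 449 and 470 CPM in WT DMSO (-0.46, SE 0.08, adjusted p = 9.25e-05). Both were well counted and their groups did not overlap. RPL21 stood at 1.73, 2.47 and 1.58 CPM in insR DMSO and 2.98, 4.29 and 5.18 CPM in WT DMSO (-1.11, adjusted p = 0.025). RPS26 stood at 2.13, 3.13 and 2.11 CPM in insR DMSO and 5.27, 4.82 and 5.72 CPM in WT DMSO (-1.11, adjusted p = 0.0178). These low-count genes lost their calls without insR DMSO replicate 1 or 3, RPL21 also without WT DMSO replicate 2 or 3, and RPS26 also once its pseudogene rows were added.

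RPL26, RPS25 and RPL21 lie among genes that were lower too. The 20 nearest tested protein-coding genes, 10 on each side in GENCODE 29 order, had a median log2 fold change in DMSO of -0.92 around RPL26 on chromosome 17, with 15 called lower and 1 higher. Around RPS25 on chromosome 11 the median was -0.60, with 15 lower and 0 higher. Around RPL21 on chromosome 13 it was -1.02, with 18 lower and 1 higher. No other member had a neighbour median below -0.5. RPS26 on chromosome 12 differed in this, with a neighbour median of 0.10 and 0 of 20 lower. On the same chromosome 11, RPS3 gave 0.28 (edgeR adjusted p = 0.0417), a call that ended on leaving out replicate 2 or 3 of WT DMSO or replicate 1 or 2 of insR DMSO. On chromosome 6, RPS18 (0.47) and RPS12 (0.25, adjusted p = 0.0134) were called higher, while RPL10A gave 0.23 and RPS10 0.09, neither called. Over 76 members Pearson's r between a member and its neighbours was 0.61 and Spearman's rho 0.18, given as a description of points that share libraries. DNA copy number was not measured, and its part in these values was not tested.

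**Figure D5:**
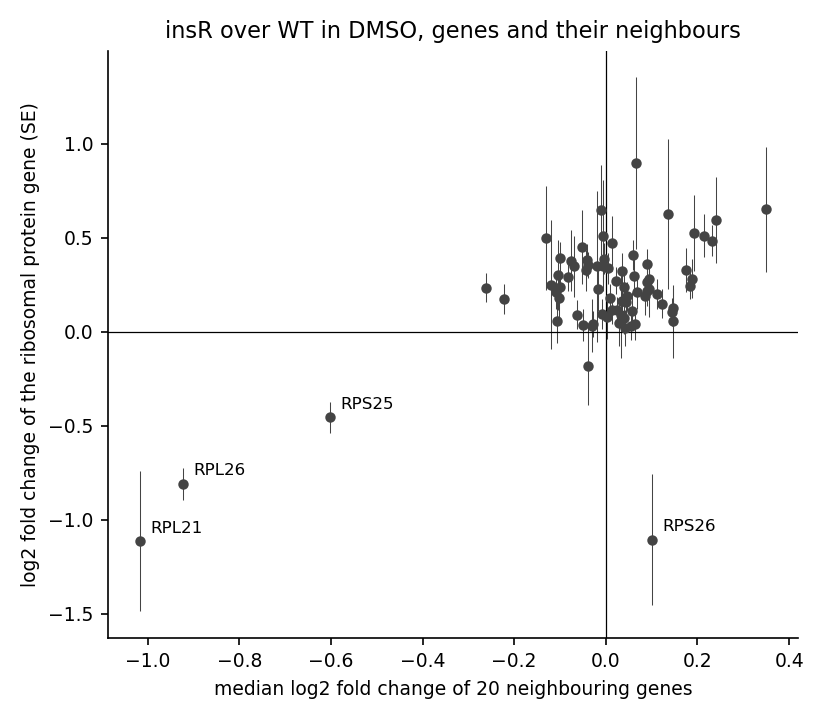
For each of 76 ribosomal protein genes, the log2 fold change of insR over WT in DMSO (vertical, SE bars) against the median of its 20 neighbouring genes (horizontal). RPL21, RPL26 and RPS25 lie at the lower left with neighbour medians of -1.02, -0.92 and -0.60, and RPS26 is low with neighbours near 0.

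Under the drug few members differed between insR and WT cells. Of 76 members 7 were higher in insR cells (9.21%) and 9 lower (11.8%), where 27% of all genes were called higher, 27.5% lower and 54.5% in either direction. All insR libraries lay above all WT libraries in 16 members and below in 18, against 29.7% and 30.4% of all genes, and the median log2 fold change was -0.00. With upper-quartile scaling the split was 6 higher and 20 lower. RPL26 stood at 315, 305 and 344 CPM in insR GSK-LSD1 and 750, 653 and 686 CPM in WT GSK-LSD1 (-1.11, SE 0.09, edgeR adjusted p = 8.55e-11). RPS25 stood at 318, 307 and 307 CPM in insR GSK-LSD1 and 659, 518 and 592 CPM in WT GSK-LSD1 (-0.92, SE 0.08, adjusted p = 9.95e-10). Their neighbours had medians of -0.95 and -0.62 here. RPL13A was also lower in insR cells (-0.71, adjusted p = 2.88e-08), as were RPLP1 (-0.40) and RPS6 (-0.25), the substrate of S6 kinases. RPL29 (-0.48), RPL11 (-0.26) and RPL5 (-0.25) were lower too, but RPL11 and RPL5 lost their calls without WT GSK-LSD1 replicate 3, RPL5 also without insR GSK-LSD1 replicate 1 or 2, and RPL29 without insR GSK-LSD1 replicate 3. RPL35 (0.41), RPL8 (0.38) and RPS16 (0.30) were higher. RPL7 (0.59), RPL36A (0.55), RPL36 (0.24) and RPL27 (0.24) were also called higher, and each lost its call without 1 or more single libraries, among them WT GSK-LSD1 replicate 3 for RPL7 and RPL36A, WT GSK-LSD1 replicate 2 for RPL36 and WT GSK-LSD1 replicate 1 for RPL27. With pseudogene rows added, RPL7 gave -0.062 and RPL36A -0.0046, neither called.

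Members differed in how well replicates matched. The coefficient of variation of CPM within groups, averaged over the 4 groups, had a median of 7.82% over 76 members and was above 20% in 10. Of these 10, 6 averaged under 100 reads per library, but RPL39, RPL30, RPL7A and RPS27 were better counted. RPS27 stood at 136, 171 and 166 CPM in insR GSK-LSD1, 101, 212 and 187 CPM in insR DMSO, 59.7, 127 and 101 CPM in WT GSK-LSD1, and 116, 112 and 37.3 CPM in WT DMSO. RPL30 stood at 994, 1315 and 1128 CPM in insR GSK-LSD1, 997, 1336 and 1273 CPM in insR DMSO, 660, 1167 and 909 CPM in WT GSK-LSD1, and 992, 1020 and 517 CPM in WT DMSO. In both genes the same libraries were the lowest of their groups: replicate 1 of insR GSK-LSD1, insR DMSO and WT GSK-LSD1, and replicate 3 of WT DMSO. Neither gene was called in either drug comparison, and what sets these libraries apart was not tested.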

How the data were processed

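The authors deposited, per library, a table of whole-read counts per Ensembl gene with no normalization. Per the labels' protocols a QuantSeq kit (3′, forward) turned polyadenylated RNA into libraries, so reads lie near transcript ends and gene length was not divided out. The submitters' processing notes name bcl2fastq 2.2, STAR 2.6.0c, HTSeq 0.9.1, DESeq2 and the build hg19. For the annotation release, the strand setting and the handling of multiple alignments, nothing is stated in the sources used here. Genes that overlap or have an antisense partner are therefore uncertain. Rows that name no gene were left out of library sizes and tests. Non-unique alignments, 1 such row, held 57.9% to 62.6% of a table's total, and 13.7% to 19.5% of uniquely aligned reads lay outside genes. The deposited normalized table was not used here, and results of a few genes are not reported here.

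Symbols were matched for 52181 of 63677 identifiers. Gene type, chromosome and neighbour order came from GENCODE 29, a later build, so no coordinates were taken from it. Promoter windows of 250 bases before and 50 after each start came from RefSeq (GRCh38.p14), and 62 members matched.

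Genes kept by filterByExpr were tested with edgeR 4.0.16 (robust quasi-likelihood, TMM factors; R 4.3.3) in 1 fit of the 4 group means to all 12 libraries, with contrasts for the 5 comparisons. P-values were adjusted by Benjamini and Hochberg's method across 12864 genes, with calls below 0.05. CPM values use TMM-scaled library sizes. The labels do not state whether the replicates of a group are separate cultures. The p-values thus measure the spread between these libraries alone, which may be technical. Replicates differed by more than counting noise (chi-square per degree of freedom 2.90 to 7.77), so none was merged.

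The members, lists and comparisons were chosen with earlier results of these data known. Named genes were KDM1A, the called members with the largest changes (up to 8 per direction and comparison), the members of the stalk, of the RPL5 and RPL11 particle and of the chromosome lists, up to 4 called Diamond-Blackfan members and up to 3 called genes of lowest p per other list, all paralog-like and other-named genes tested, and the 3 members with the most and the fewest reads. RPS6, RPS27, RPL30, MYC and other genes named beyond this were chosen after their values were seen.

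Results were recomputed with size factors of DESeq2, upper-quartile scaling, scaling without the members, other count filters, limma-voom (limma 3.58.1), DESeq2 1.42.0, a replicate block, only the groups compared, no robust fit, members summed with their pseudogene rows, and each library left out in turn. On simulated counts of 12864 genes with 200 changed, edgeR recovered 64% of 2-fold changes and 10% of log2 changes of 0.32 for the WT response, with 8 false calls. For the insR response it recovered 70% and 6%, with 11 false calls. The changed genes were drawn at random over all depths and were far fewer than those called in WT cells. These rates therefore need not hold for the members. A count of 0 allows up to 3 reads, worth 0.305 to 0.622 CPM, for counting error only. Summaries and figures used Python 3.11.15, pandas 2.3.3, numpy 2.4.6 and matplotlib 3.10.9.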

Additional observations from a re-analysis of the deposited data

Results flagged for a closer look

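In 16 of 76 members (21.1%) the response to GSK-LSD1 differed between insR and WT cells by the interaction test of edgeR over all genes. All 16 were more negative in insR cells. Of all genes, 25.1% were called in either direction, 11.8% more negative and 13.3% more positive. The differences in log2 fold change, insR minus WT, for those given here were -0.95 for RPL13A, -0.63 for RPL28, -0.55 for RPL31, -0.52 for RPL15, -0.51 for RPS23, -0.47 for RPS25 and -0.46 for RPL13. They were -0.44 for RPLP1, -0.44 for RPS20, -0.39 for RPL37, -0.355 for RPL23, -0.35 for RPL11, -0.35 for RPL12, -0.35 for RPS29 and -0.31 for RPS12. In each of these genes the response was positive in WT cells. RPS20, RPS23, RPL11 and RPL12 lost their calls when single libraries were left out, as given above. No group held enough libraries for a test of single outlying libraries.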

How the results depend on the processing

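Counts of members called were recomputed under every alternative. For the WT response, 2 members were lower, 1 with upper-quartile scaling, DESeq2, the replicate block or no robust fit, 0 with pseudogene rows added, and 1 to 3 with a library left out, where the count higher was 27 to 37. For insR against WT under GSK-LSD1, 9 were lower, 20 with upper-quartile scaling and 14 with pseudogene rows added, and 7 were higher, 11 with no filter beyond 1 count and 12 on only the groups compared. Leaving out libraries gave 14 to 26 higher and 2 to 4 lower for insR against WT in DMSO, and 0 to 1 more positive and 8 to 20 more negative for the difference in response. The family's share of gene reads without mitochondrial genes was 9.81% in insR GSK-LSD1, 9.70% in insR DMSO, 10.5% in WT GSK-LSD1 and 8.58% in WT DMSO, and with pseudogene rows 9.86%, 9.73%, 10.6% and 8.66% in the same order. Among the results followed for named genes, adding pseudogene rows reversed RPL36A (-0.0046) and RPL7 (-0.062) under GSK-LSD1 and RPL7 in the WT response (0.19). Other members also turned from negative to positive in the WT response. RPS3A went from -0.08 to 0.45 and was then called (edgeR adjusted p = 0.000953), while RPL9, RPL21 and RPL36A were not called. Of the named genes' values under alternatives, 2856 kept direction and side of the threshold, 119 lost their call and 3 reversed, and the cause was not tested. Same-numbered libraries correlated at -0.17 to 0.20 over 18 pairs, and differently numbered libraries of different groups at -0.31 to 0.29. No shared effect of a number was seen, but such weak correlations cannot show whether the numbers pair libraries. The replicate block moved 1 count by over 1.5 times, the 2 lower members of the WT response becoming 1. Members with few reads limit what can be seen: 10 tested members under 100 reads per library had a median SE of 0.29, against 0.08 for those over 10000.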
